A study of Mus musculus with 3 samples.

Results

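A set of 9 genes of megakaryocytes and platelets, Pf4, Ppbp, Gp9, Gp1ba, Gp1bb, Vwf, Itga2b, Clec1b and Treml1, was followed across 3 arrays of whole mouse embryos. The genes were taken by name, as markers of the lineage, with earlier results of these data known. Each probe was named through its RefSeq accession. All 9 were found, with 1 probe and 1 spot each, among 13184 named genes with signal well above background on 1 or more arrays. The groups were embryos without MafF, MafG and MafK at E10.5 (MafF-/-:MafG-/-:MafK-/-, here triple null), and embryos without MafF and MafK but with both copies of MafG (MafG+/+, here MafG-intact) at E10.5 and at E9.5. The MafG-intact embryos are therefore no wild type, since MafF and MafK are missing in every group. Each pool held total RNA of 3 embryos on a mixed background, and each group had 1 array, so the differences carry no replicate error and were not tested.

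Megakaryocytes are the cells that shed platelets, and in the mouse embryo the first of them arise in the yolk sac. Their late genes are driven by GATA1, by ETS factors such as FLI1, and by NF-E2, a pair made of the blood-restricted p45 protein (gene Nfe2) and a small Maf protein. The small Maf proteins MafF, MafG and MafK have no activation domain of their own, and mice that lack p45 form megakaryocytes that release almost no platelets. The question that these groups address for the platelet genes is what the further loss of MafG adds, and how the result lies beside a younger stage.

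The arrays themselves were read first. The 75th percentile of the intensity was 1078 on the triple null array, 1419.9 on the E10.5 MafG-intact array and 1064 on the E9.5 MafG-intact array, and 69.2%, 70.4% and 69.1% of 41170 probes were well above background in that order. The targeted gene Mafg gave no signal well above background in triple null embryos, a difference of at least 173-fold from MafG-intact E10.5. Xist passed background only with the E10.5 MafG-intact pool, and the Y-linked gene Ddx3y only with the 2 other pools, so the 2 comparisons with the E10.5 MafG-intact array also set pools of different sex against each other. In pooled whole embryos, fewer cells of a type and less RNA per cell cannot be told apart. Errors given below are those that the scanner software gave for each spot, and do not cover the spread between embryos or pools. For bright spots they were nearly constant, near 0.144 log2. Repeated spots spread less, with a median SD of 0.05 on the triple null array at log2 levels from 0 to 2 above the 75th percentile.

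In the triple null pool at E10.5 the platelet chemokine genes Pf4 and Ppbp, the receptor genes Gp9 and Gp1ba and the granule membrane gene Treml1 were at least 2-fold lower than in the MafG-intact pool of the same stage, by 5.29-fold to at least 46.4-fold. These 5 of 9 genes stood beside 5.31% of 13085 genes that were lower by that much. The other 4 genes, Gp1bb, Itga2b, Clec1b and Vwf, were also below the E10.5 MafG-intact array, by 1.73-fold at most. Against the younger MafG-intact E9.5 pool, Pf4, Ppbp, Gp9 and Treml1 were again at least 2-fold lower, which is 4 of 9 beside 0.838% of 12893 genes. The E10.5 MafG-intact array had the highest scaled signal for 9 of 9 genes, and the triple null array the lowest for 6 of 9. How often all genes take this order was not counted. For Vwf, Itga2b and Clec1b the E10.5 MafG-intact array lay above the E9.5 array by only 0.18, 0.24 and 0.28 (log2).

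**Figure D1:**
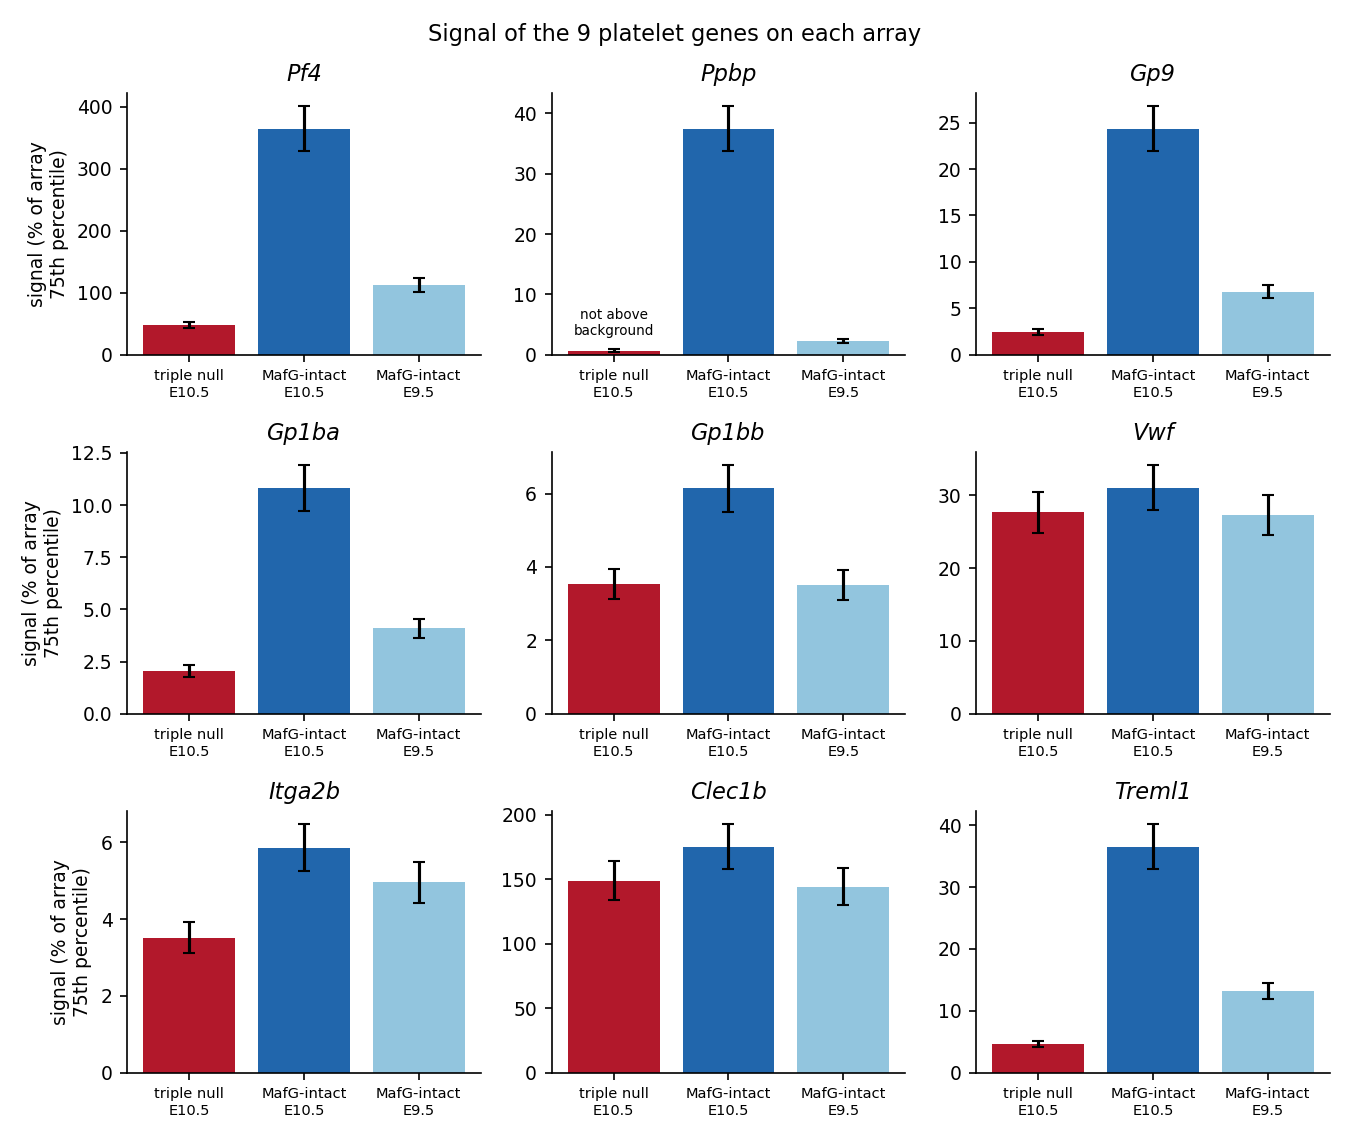
Signal of each platelet gene on each of the 3 arrays, as a percentage of the 75th percentile of the array's intensity, with the scanner's spot error as the error bar and 1 array per bar. The bars of Pf4, Ppbp, Gp9, Gp1ba and Treml1 differ several-fold between arrays, whereas those of Vwf and Clec1b lie within a narrow range. The axes differ between panels, because signals of different probes cannot be set against each other.

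The upstream sequence of the 5 genes with the largest differences is shown, because these genes were lower together. RefSeq promoters (GRCm38.p6) cover 8 of the 9 genes, and each window printed is the 250 bases before the gene start, given 5′ to 3′ on the gene's strand. Capitals mark the ETS core GGAAG and the GATA core GATAA on either strand, so that CTTCC and TTATC are these cores on the opposite strand.
Pf4: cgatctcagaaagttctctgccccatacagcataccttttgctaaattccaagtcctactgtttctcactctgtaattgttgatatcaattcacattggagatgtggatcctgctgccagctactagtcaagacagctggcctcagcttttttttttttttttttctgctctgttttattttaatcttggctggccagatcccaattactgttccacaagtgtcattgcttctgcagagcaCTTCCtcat
Ppbp: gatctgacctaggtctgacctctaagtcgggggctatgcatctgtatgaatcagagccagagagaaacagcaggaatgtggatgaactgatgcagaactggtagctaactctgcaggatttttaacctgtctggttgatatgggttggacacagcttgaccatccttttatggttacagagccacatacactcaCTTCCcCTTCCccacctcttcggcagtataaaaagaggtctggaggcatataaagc
Gp9: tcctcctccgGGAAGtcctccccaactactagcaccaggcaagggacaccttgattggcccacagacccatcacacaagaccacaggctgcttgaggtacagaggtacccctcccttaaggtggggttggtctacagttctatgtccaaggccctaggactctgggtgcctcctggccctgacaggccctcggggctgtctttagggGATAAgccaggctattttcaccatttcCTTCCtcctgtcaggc
Gp1ba: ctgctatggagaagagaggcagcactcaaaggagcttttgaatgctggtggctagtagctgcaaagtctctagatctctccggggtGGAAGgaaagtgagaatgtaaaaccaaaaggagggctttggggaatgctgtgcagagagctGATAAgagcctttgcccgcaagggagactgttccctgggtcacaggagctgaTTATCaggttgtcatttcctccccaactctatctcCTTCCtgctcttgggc
Treml1: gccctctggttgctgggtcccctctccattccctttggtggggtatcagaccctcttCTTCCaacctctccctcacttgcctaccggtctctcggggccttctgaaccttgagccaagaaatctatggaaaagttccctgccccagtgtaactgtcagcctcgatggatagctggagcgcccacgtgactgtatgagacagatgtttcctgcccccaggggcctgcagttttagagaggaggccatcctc
The windows lie on the plus strand at chr5:90772185-90772434 for Pf4, chr5:90768268-90768517 for Ppbp, chr6:87777820-87778069 for Gp9, chr11:70638872-70639121 for Gp1ba and chr17:48359666-48359915 for Treml1. The Gp9 start used by RefSeq's promoter table lies 1939 bases inside the outermost boundary of the gene.

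A set of 3 short motifs was searched in these windows on both strands. They were the NF-E2 core TGAGTCA, the GATA core GATAA and the ETS core GGAAG, and no match overlapped another. The NF-E2 core was found in 0 of the 8 windows and in 4.46% of 32851 windows of the same length. The GATA core was found in 3 of the 8, Gp9, Gp1ba and Clec1b, and in 22.6% of all windows. The ETS core was found in 7 of the 8, all but Clec1b, and in 64.1% of all windows, so it is a common string in windows of this length. Counted back from the gene start, Gp9 and Gp1ba each hold an ETS core from -16 to -12, and Pf4 holds one from -9 to -5. The matches are descriptions of these letters. Other spellings of a site, and sites farther from the start, were not searched.

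Pf4 and Ppbp encode chemokines that megakaryocytes store in alpha granules and that platelets release on activation. Pf4 gave an intensity of 516 ± 51.7 (scanner error) on the triple null array, 5185 ± 518 on the E10.5 MafG-intact array and 1203 ± 120.3 on the E9.5 MafG-intact array. Scaled to each array, these were 47.9%, 365% and 113% of the 75th percentile in the same order. The triple null array was low for Pf4 against both others, and no scanner errors overlapped. The triple null signal was 13.1% of the MafG-intact E10.5 signal, a log2 difference of -2.93 ± 0.20, and 42.4% of the MafG-intact E9.5 signal, a log2 difference of -1.24 ± 0.20. Among 13080 genes with a measured or bounded difference, 40 lay at or below Pf4 against E10.5, and 71 of 12889 did against E9.5. Counts of this kind, here and below, include the gene itself.

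Ppbp had the largest difference of the 9 genes against MafG-intact E10.5. Its intensity was 7.08 ± 2.56 on the triple null array, where it was not well above background, 532 ± 53.3 on the E10.5 MafG-intact array and 23.5 ± 3.46 on the E9.5 MafG-intact array. The triple null level is therefore a bound, set at the lowest signal well above background on that array. Ppbp was at least 46.4-fold lower in triple null embryos than in MafG-intact embryos of E10.5, with 4 genes at or below it, and at least 2.73-fold lower than in the MafG-intact E9.5 pool. Between the MafG-intact stages Ppbp was 17.0-fold higher at E10.5 than at E9.5, with 9 of 13075 genes at or above it. With normexp background correction, which adds an offset of 50 to every signal and so draws dim values together, its log2 differences were -2.68 from MafG-intact E10.5 and -0.31 from MafG-intact E9.5 for the triple null pool, and 2.37 between the MafG-intact stages.

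Gp9, Gp1ba and Gp1bb encode subunits of the GPIb-IX complex, the platelet receptor for von Willebrand factor, in which the beta and IX subunits are needed for the complex to reach the surface. The Gp9 intensity was 26.0 ± 3.54 on the triple null array, 346 ± 34.7 on the E10.5 MafG-intact array and 72.2 ± 7.63 on the E9.5 MafG-intact array. The triple null pool was 10.1-fold lower than MafG-intact E10.5 and 2.82-fold lower than MafG-intact E9.5. Gp9 was thus low on the triple null array against both, with log2 differences of -3.34 ± 0.24 and -1.49 ± 0.25. With normexp these were -1.72 and -0.55, the second short of 2-fold.

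Gp1ba, whose product carries the binding site for von Willebrand factor, followed the same order of arrays at smaller differences. Its intensity was 22.1 ± 2.95 on the triple null array, 154 ± 15.6 on the E10.5 MafG-intact array and 43.5 ± 4.80 on the E9.5 MafG-intact array. It was 5.29-fold lower in triple null embryos than in MafG-intact E10.5 and lay just short of the 2-fold threshold against MafG-intact E9.5, at 50.05% of its signal (log2 -0.999 ± 0.25). With scaling on spike-in probes it passed that threshold, and with normexp it lay at -0.98 against MafG-intact E10.5 and -0.38 against MafG-intact E9.5, short of it in both. Gp1bb differed from its partners. It gave 38.2 ± 4.36 on the triple null array, 87.2 ± 9.10 on the E10.5 MafG-intact array and 37.3 ± 4.33 on the E9.5 MafG-intact array, so the triple null and MafG-intact E9.5 values lay within their scanner errors. Its log2 difference was -0.79 ± 0.22 against MafG-intact E10.5, where 983 genes lay at or below it (-0.20 with normexp), and 0.01 ± 0.23 against MafG-intact E9.5.

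The neighbour of Gp1bb on chromosome 16, Septin5, had log2 differences of -0.95 against MafG-intact E10.5 and -0.02 against MafG-intact E9.5. In human, transcripts that run from SEPT5 into GP1BB are known; whether the mouse probe reads such a transcript was not tested.

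Vwf and Itga2b encode parts of platelet adhesion and aggregation. Vwf encodes von Willebrand factor, a ligand made by endothelial cells as well as by megakaryocytes. Its intensity was 298 ± 29.9 on the triple null array, 441 ± 44.2 on the E10.5 MafG-intact array and 290.4 ± 29.2 on the E9.5 MafG-intact array. Scaled, these were 27.6%, 31.0% and 27.3% of the 75th percentile, so the arrays did not separate beyond their scanner errors, and the triple null pool lay at -0.17 ± 0.20 and 0.02 ± 0.20 (log2) from the MafG-intact E10.5 and E9.5 pools. Of 20 endothelial markers above background, none was 2-fold apart in either comparison. Of all genes, 5.31% were at least 2-fold lower against MafG-intact E10.5 and 0.838% against MafG-intact E9.5. The summed signal of the endothelial markers was 5256% of the 75th percentile on the triple null array, 4866% on the E10.5 MafG-intact array and 5093% on the E9.5 MafG-intact array.

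Itga2b encodes the alpha subunit of the fibrinogen receptor and is also made by early blood progenitors. It gave 37.9 ± 4.37 on the triple null array, 83.2 ± 8.74 on the E10.5 MafG-intact array and 52.7 ± 5.73 on the E9.5 MafG-intact array. Unlike Gp1bb and Vwf it was lowest in triple null embryos, at 60.0% of the MafG-intact E10.5 signal (log2 -0.74 ± 0.22) and 71.0% of the MafG-intact E9.5 signal (log2 -0.50 ± 0.23), without reaching the 2-fold threshold against either (-0.13 and -0.21 with normexp). Its partner Itgb3, the beta subunit, which other cell types also make, had log2 levels of -3.13 on the triple null array, -3.38 on the E10.5 MafG-intact array and -3.03 on the E9.5 MafG-intact array relative to the 75th percentile.

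Clec1b and Treml1 encode surface receptors whose differences were unlike in size. Clec1b encodes CLEC-2, the receptor for podoplanin that in mice is needed to keep blood and lymphatic vessels apart. It gave 1606 ± 161 on the triple null array, 2489 ± 249 on the E10.5 MafG-intact array and 1535 ± 154 on the E9.5 MafG-intact array, or 149%, 175% and 144% of the 75th percentile. These scaled values overlap within their scanner errors, and the triple null pool lay at -0.23 ± 0.20 and 0.05 ± 0.20 (log2) from MafG-intact E10.5 and E9.5.

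Treml1 encodes a receptor of the alpha granule membrane that reaches the platelet surface on activation and binds fibrinogen. It gave 49.9 ± 5.61 on the triple null array, 519 ± 52.0 on the E10.5 MafG-intact array and 140.3 ± 14.3 on the E9.5 MafG-intact array. The triple null pool was low against both, at 12.7% of the MafG-intact E10.5 signal (log2 -2.98 ± 0.22) and 35.1% of the MafG-intact E9.5 signal (log2 -1.51 ± 0.22). In the second of these comparisons, 50 of 12889 genes lay at or below Treml1. With normexp the differences were -1.91 from MafG-intact E10.5 and -0.90 from MafG-intact E9.5, the second short of 2-fold.

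**Figure D2:**
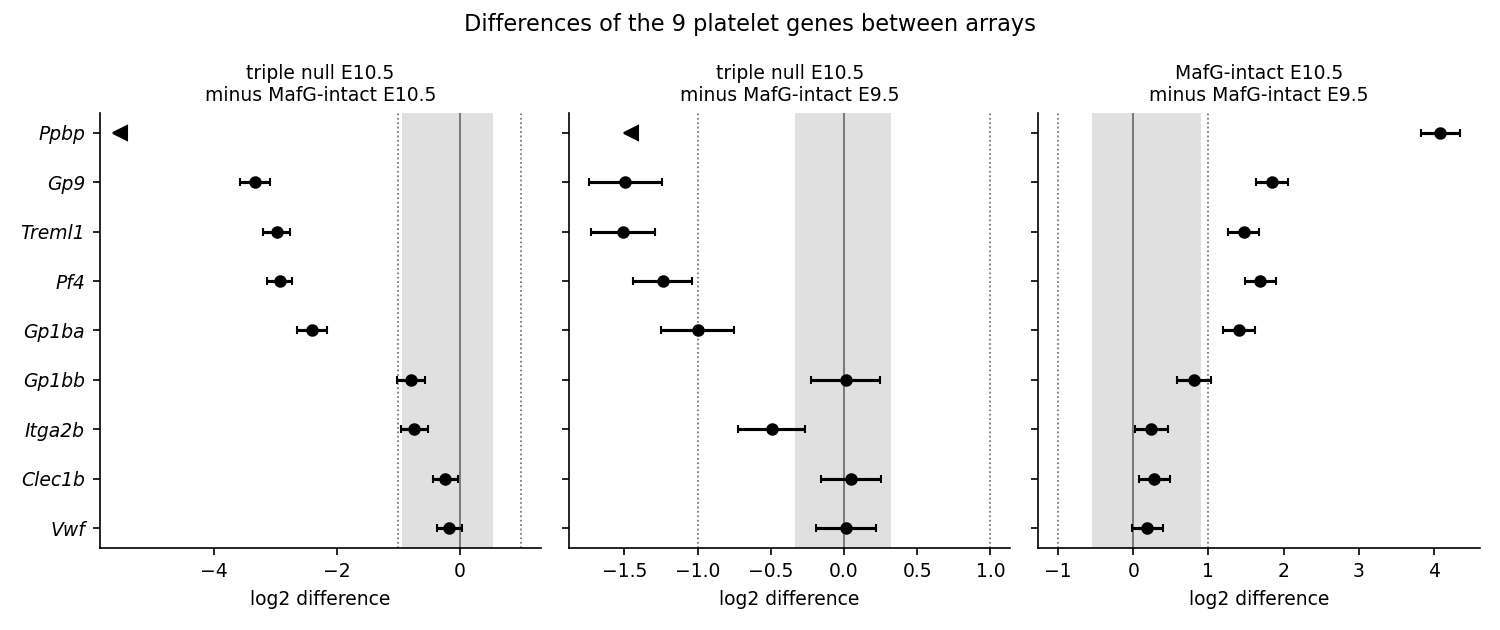
Log2 differences of the 9 platelet genes in the 3 comparisons, with the propagated scanner error as the bar and a triangle where the triple null value is a bound. The grey band is the 5th to 95th percentile of all genes above background on both arrays, and dotted lines mark 2-fold. In it, 5 genes lie far to the left of the band against MafG-intact E10.5, with Ppbp at a bound of -5.54, and Gp1bb, Itga2b, Clec1b and Vwf lie inside it.

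Over the 8 genes above background on both arrays, the median log2 difference between the triple null and MafG-intact pools at E10.5 was -1.60, or -2.40 with Ppbp at its bound, beside 0.06 over 12529 genes. The middle of that distribution, from the 5th to the 95th percentile, ran from -0.93 to 0.55. All 9 platelet genes lay below 0. Dim genes reach 2-fold more often, and 7 of the 9 were under the median level of the brighter array. Of these 7, 4 were at least 2-fold lower, beside 8.82% of the 6542 genes under that level. With normexp the platelet median was -0.63 and the count 4 of 9.

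Against MafG-intact E9.5 the platelet median was -0.75, or -0.999 with Ppbp at its bound, beside 0.01 over 12521 genes, whose 5th to 95th percentile ran from -0.34 to 0.32. Of the platelet genes 6 lay below 0 and 3 above it, those 3 by 0.05 at most. Of the 7 dim ones, 3 were at least 2-fold lower, beside 1.54% of 6446 genes. With normexp 1 of the 9, Pf4 at -1.14, was still at least 2-fold lower than in MafG-intact E9.5. Xist was not above background on either array of this pair, and Ddx3y lay at 0.23. Both comparisons use the single triple null array, so an error of that array enters both.

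**Figure D3:**
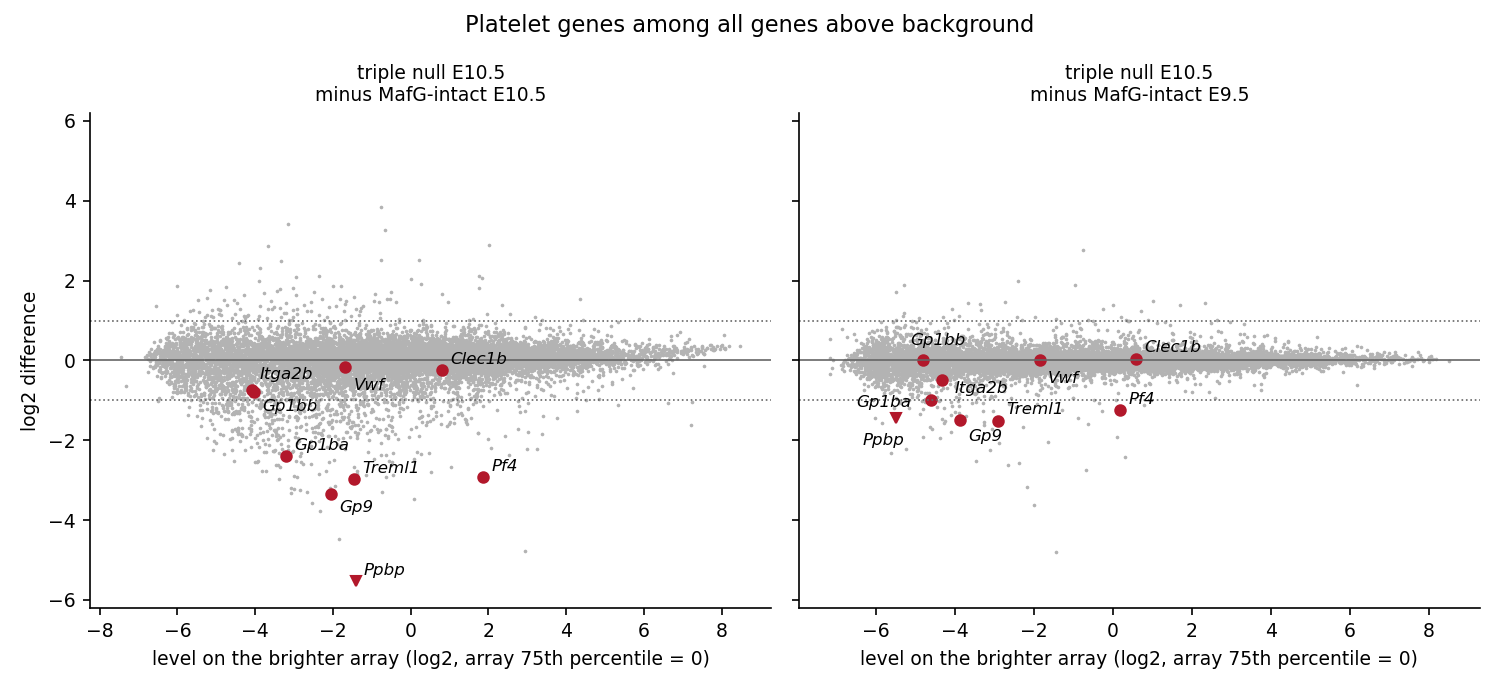
Log2 difference against level on the brighter array, with grey points for all genes above background on both arrays, red points for the platelet genes, and a red triangle for the Ppbp bound. Dotted lines mark 2-fold. Against MafG-intact E10.5 the genes Pf4, Treml1, Gp9, Gp1ba and Ppbp lie at the lower edge of the cloud at their level, and against MafG-intact E9.5 the cloud is narrower and Pf4, Ppbp, Gp9 and Treml1 lie under the 2-fold line.

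The day from E9.5 to E10.5 within the MafG-intact genotype was read next. Ppbp (17.0-fold), Gp9 (3.59-fold), Pf4 (3.23-fold), Treml1 (2.77-fold) and Gp1ba (2.65-fold) were at least 2-fold higher at E10.5, which is 5 of 9 beside 4.92% of 13096 genes. Of the 7 dim genes 4 were higher, beside 8.09% of 6548. The platelet median was 1.40, beside -0.05 over 12514 genes, and 9 of 9 genes lay above 0. Gp1bb lay at 0.81, Clec1b at 0.28, Itga2b at 0.24 and Vwf at 0.18. With normexp Ppbp lay at 2.37, Gp9 at 1.17, Treml1 at 1.003, Gp1ba at 0.60, under 2-fold, Gp1bb at 0.19 and Itga2b at -0.07. The 5 genes that were higher at E10.5 in MafG-intact embryos are the 5 that were lower in triple null embryos against MafG-intact E10.5; these comparisons share the E10.5 MafG-intact array, so they are not independent of each other.

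Expressed as a share of the MafG-intact E10.5 signal, the triple null and MafG-intact E9.5 pools can be set side by side for each gene but Ppbp. Ppbp was left out because its triple null signal was not well above background. Pf4 stood at 13.1% in triple null embryos and 31.0% in the MafG-intact E9.5 pool, Gp9 at 9.90% and 27.9%, and Treml1 at 12.7% and 36.1%. Gp1ba stood at 18.9% in triple null embryos and 37.8% in the MafG-intact E9.5 pool. For these 4 genes the triple null pool was below the younger pool. Gp1bb at 57.6% in triple null embryos and 57.1% in the MafG-intact E9.5 pool, Vwf at 89.0% and 88.0%, and Clec1b at 85.0% and 82.3%, lay side by side, whereas Itga2b stood at 60.0% in triple null embryos and 84.6% in the MafG-intact E9.5 pool.

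Other genes of the platelet were mostly within 2-fold, but a larger share of them than of all genes was lower against MafG-intact E10.5. Of 70 further genes in 4 lists (surface receptors, granule contents, cytoskeleton and secretion, signalling and eicosanoid enzymes), 54 were above background on at least 1 array. Against MafG-intact E10.5, 13 of 54 were at least 2-fold lower in triple null embryos and 0 higher, beside 5.31% of all genes lower, with a median of -0.13 log2. Against MafG-intact E9.5, 2 of 52 were lower, Gp5 and Lcp2, beside 0.838% of all genes, with a median of -0.07. Between the MafG-intact stages 11 of 53 were higher at E10.5, beside 4.92% of all genes. Some of the genes within 2-fold were bright in these whole embryos. Wdr1 and F2r, for example, had log2 levels of 4.19 and 4.15 on the E10.5 MafG-intact array. Which cells gave such signals was not tested.

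Among the surface receptors 2 of 12 were lower in triple null embryos than in MafG-intact E10.5, Gp5 among them. Gp5, which joins the GPIb-IX complex, had log2 levels of -6.99 on the triple null array, not above background, -4.77 on the E10.5 MafG-intact array and -5.76 on the E9.5 MafG-intact array, at least 4.55-fold lower in triple null embryos than in the first of the MafG-intact pools and at least 2.29-fold lower than in the second. None of the other 10 was 2-fold apart by a measured difference or a bound.

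Of 11 granule genes 2 were lower in triple null embryos than in MafG-intact E10.5. F13a1, the transglutaminase subunit that cross-links fibrin, was above background on the E10.5 MafG-intact array alone and was at least 15.8-fold lower in triple null embryos. Srgn, the proteoglycan that holds granule contents, had differences of -2.76 from MafG-intact E10.5 and -0.47 from MafG-intact E9.5.

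Of 12 cytoskeleton and secretion genes 2 were lower, namely Plek, a substrate of protein kinase C (-2.01 and -0.94), and Fermt3, the integrin activator kindlin-3 (-1.46 and -0.94). Of 19 signalling and eicosanoid genes 7 were lower. They included the adaptor genes Lcp2 (-2.54 and -1.06) and Fyb (-2.27 and -0.87), the lipoxygenase gene Alox12 (-2.21 and -0.63), the exchange factor gene Vav1 (-2.07 and -0.26) and the thromboxane synthase gene Tbxas1 (-2.03 and -0.94), each given against MafG-intact E10.5 and then E9.5. F13a1, Srgn, Plek, Fermt3, Lcp2, Fyb, Vav1 and Tbxas1 are also expressed by macrophages and other white cells.

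Transcription factors of the megakaryocyte lineage were mostly within 2-fold. Of 20 such genes, 2 were at least 2-fold lower in triple null embryos than in MafG-intact E10.5, Gfi1b, a repressor needed for red cells and megakaryocytes (-1.76), and Runx1, needed for the first blood stem cells and for platelets (-1.29), beside 5.31% of all genes. None was 2-fold apart from MafG-intact E9.5, where 0.838% of all genes were at least 2-fold lower, and the medians were -0.06 and -0.10. Nfe2, the p45 partner of the small Maf proteins, had log2 levels of -0.35 on the triple null array, 0.28 on the E10.5 MafG-intact array and -0.46 on the E9.5 MafG-intact array, with differences of -0.62 and 0.11. Gata1 lay at -0.96 and -0.47, Fli1 at -0.53 and -0.21 and Tal1 at -0.69 and -0.20. Other factors lay above 0 against MafG-intact E10.5, among them Hhex at 0.57 and Etv6 at 0.28. Of the 20 factors, 13 lay below 0 against MafG-intact E10.5 and 17 against MafG-intact E9.5.

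In the list of small Maf and p45 family genes, which shares Nfe2 with the factors, Mafg was the 1 gene of 8 at least 2-fold lower in either comparison.

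Other blood cell markers were lower along with the platelet genes at E10.5. Of 12 macrophage and myeloid markers above background, 12 were at least 2-fold lower in triple null embryos than in MafG-intact E10.5. The share over all genes was 5.31%. The 12 markers had a median of -2.32 at their bounds, among them Tyrobp (-3.59), Mpo (-2.91) and Ly86 (at least 20.4-fold). Their summed signal was 75.5% of the 75th percentile on the triple null array, 314% on the E10.5 MafG-intact array and 81.3% on the E9.5 MafG-intact array. Of the 12, 6 (Ptprc, Ly86, Cx3cr1, Adgre1, Ctss and Mrc1) did not pass background with triple null embryos, and the same 6 did not on the E9.5 MafG-intact array. They entered the count through the E10.5 MafG-intact array alone, so their direction was fixed by that filter. The median over the other 6, above background on both E10.5 arrays, was -1.68. Against MafG-intact E9.5, 0 of 6 measured myeloid markers were 2-fold apart (median -0.16), where 0.838% of all genes were at least 2-fold lower.

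Of 19 erythroid markers 14 were lower in triple null embryos than in MafG-intact E10.5 (median -1.28), beside 5.31% of all genes. Against MafG-intact E9.5, 2 were lower (median -0.33, with 19 of 19 below 0), beside 0.838% of all genes. Among the lower ones was the adult beta-globin gene Hbb-bt (-4.79 and -1.92 against MafG-intact E10.5 and E9.5). The summed erythroid signal was 35088% of the 75th percentile on the triple null array, 61988% on the E10.5 MafG-intact array and 41716% on the E9.5 MafG-intact array. Of 10 haematopoietic progenitor markers 1, Adgrg1, was lower in triple null embryos than in MafG-intact E10.5, beside 5.31% of all genes. None was lower than in MafG-intact E9.5 (median -0.07), where the share of all genes was 0.838%. The part of these other cell types in the differences of the platelet genes was not tested.

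**Figure D4:**
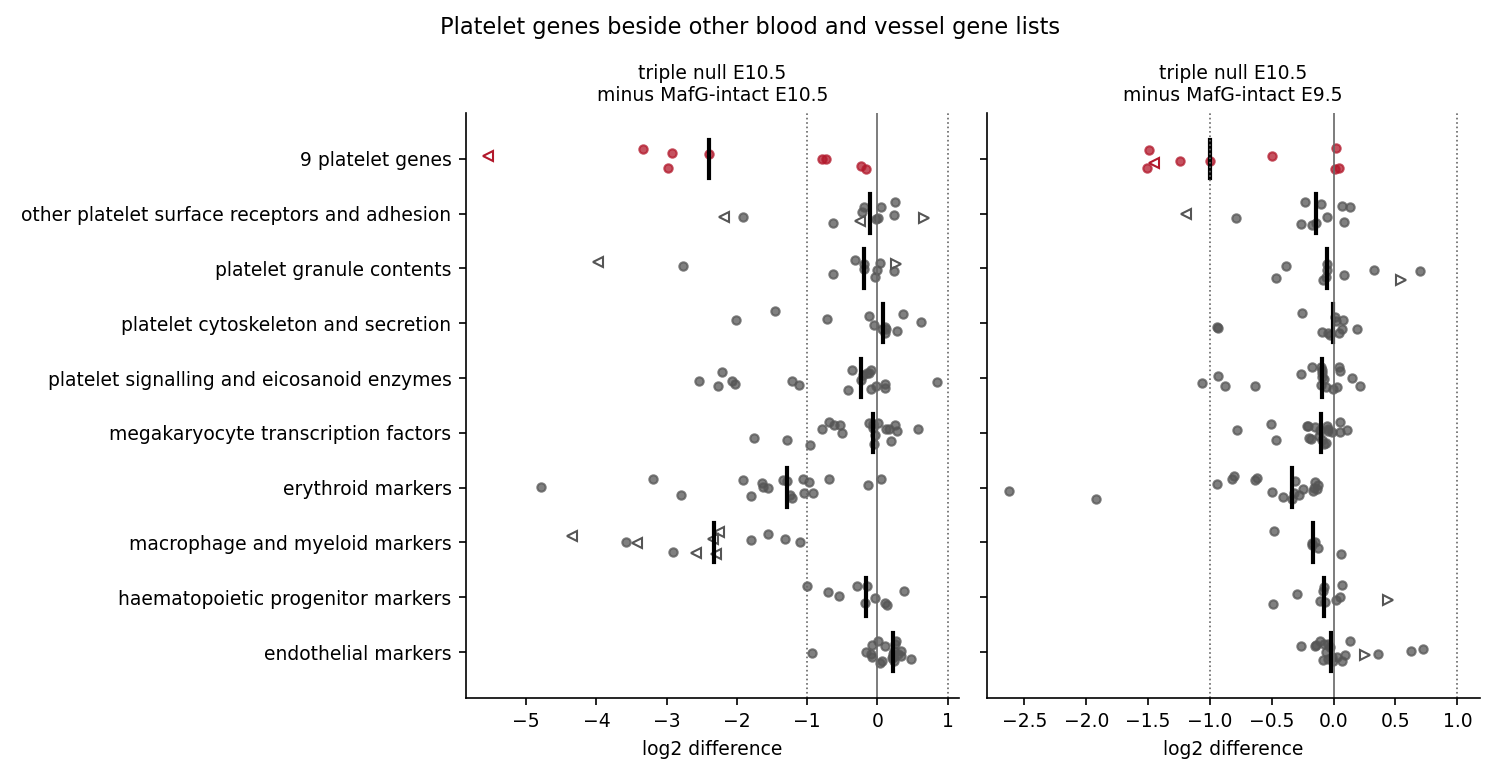
Log2 differences of the 9 platelet genes (red) and of genes in other lists (grey), with a black bar at each list's median and open triangles for bounds, which point in the direction in which the true value may lie. Against MafG-intact E10.5 the platelet, erythroid and myeloid lists lie to the left. Against MafG-intact E9.5 the platelet list has a median of -0.999, bounds included, beside -0.33 for erythroid markers and -0.16 for 6 myeloid markers. With normexp the platelet median against MafG-intact E9.5, without Ppbp, was -0.294 in place of -0.75. The other lists were not recomputed with normexp.

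Other genes were ranked by the root mean square distance of their pattern over the 3 arrays to the median centred log2 profile of the 8 platelet genes above background on all arrays. That profile was -0.77 on the triple null array, 0.90 on the E10.5 MafG-intact array and -0.11 on the E9.5 MafG-intact array. Among 12429 genes the nearest were Sqor (distance 0.01), the adult alpha-globin gene Hba-a1 (0.02), the water channel gene Aqp8 (0.03), Sgip1 (0.04), the adaptor gene Grap2 (0.04), Gjd4 (0.04), Gfi1b (0.05) and Sim2 (0.05). The median profile falls between the 4 platelet genes with differences of -2.40 or lower against MafG-intact E10.5 and the 4 with differences of -0.79 or higher, so these genes are near the median and not near any single platelet gene.

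Genes that lie beside the platelet genes on the chromosome were read in RefSeq order, with 2 protein-coding genes on each side. Pf4 and Ppbp are neighbours of each other on chromosome 5 in a cluster of chemokine genes. The next chemokine gene in that cluster, Cxcl5, lay at -0.20 against MafG-intact E10.5 and 0.70 against MafG-intact E9.5, and Rassf6 beyond it at 0.43 and 0.13. In all, 26 neighbours were above background. Of these 26, 5 were at least 2-fold lower in triple null embryos than in MafG-intact E10.5, beside 5.31% of all genes, namely Pf4 and Ppbp themselves, Ano2 beside Vwf (-1.27), Clec1a near Clec1b (-1.23) and Trem2 beside Treml1. Trem2 was above background on the E10.5 MafG-intact array alone, with a bound of -1.93. Against MafG-intact E9.5, 2 of 24 were lower, again Pf4 and Ppbp, beside 0.838% of all genes. Without that pair the counts were 3 of 24 against MafG-intact E10.5 and 0 of 22 against MafG-intact E9.5.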

How the data were processed

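Total RNA of whole embryos (500 ng per sample, 3 embryos pooled) was amplified, labelled with Cy3 and read on 1-colour Agilent arrays, per the labels. The deposited scanner files hold, per the file headers, a background-subtracted spot intensity on a linear scale from Agilent Feature Extraction 9.5.3.1, with its error and quality marks. The value table that the authors deposited holds the same intensity, rounded, and was used as an alternative. Precision is limited by 1 array per group.

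The log2 intensity of each spot was taken minus its array's 75th percentile over non-control spots. Control and outlier spots were left out, and no non-control spot was saturated. Of 41170 probes, 22950 were given 1 gene symbol through their accession and RefSeq's GRCm38.p6 table. A gene's probes were averaged where well above background on at least 1 array. Where only 1 of the compared arrays had a gene above background, its difference is a bound, from the lowest signal well above background on the dim array or its own signal there, whichever was higher. Calls are at 2-fold, with no test. Scanner errors were propagated to log2. The steps were tested on simulated data. Promoters come from RefSeq; probe and protein sequences were not used here.

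The members and lists were chosen with earlier results of these data known. The text names all 9 members, Mafg, the 8 genes nearest in profile, and from each other list up to 5 genes at least 2-fold apart in a triple null comparison or else the 2 farthest apart, of which some are printed and some are not reported here. Gata1, Nfe2, Fli1, Tal1, Hhex, Etv6, Itgb3, Xist and Ddx3y are named besides these, after their values were seen. So are the 6 myeloid markers not above background and the chromosomal neighbours. Genes of the lists that have no named probe are not analysed here. The tools were R 4.3.3 and limma 3.58.1 for normexp and quantile values, and Python 3.11.15, matplotlib 3.10.9, numpy 2.4.6 and pandas 2.3.3 for the rest. As alternatives, background was corrected by normexp with an offset of 50, arrays were quantile normalized or scaled on detected or spike-in probes, the deposited value table was read in place of the scanner files, and the rules for dim probes, for several probes and for the threshold (1.5-fold or 3-fold) were varied.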

Additional observations from a re-analysis of the deposited data

How the results depend on the processing

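No paired analysis was possible because each group has 1 array. Of the counts and medians over the platelet genes, 51 of 60 alternative values stayed close to those reported, and none reversed. Each platelet gene has 1 probe, so the rules for several probes returned the reported values by construction. The deposited value table holds the same intensity, rounded. These settings count in this tally and in that of the single-gene differences below, which raises the share that stayed close. Normexp, whose offset of 50 adds to every signal and so by its construction draws dim genes together, gave medians of -0.6303 and -0.294 for the triple null pool against MafG-intact E10.5 and E9.5 and of 0.5956 between the MafG-intact stages, and a count of 1 gene at least 2-fold lower against E9.5, namely Pf4. Under it Gp1ba lay at -0.98 against MafG-intact E10.5, short of 2-fold. Without a filter on dim probes, which lets Ppbp enter the medians, these were -2.403 and -0.9986 for the triple null pool against MafG-intact E10.5 and E9.5. Restricting to genes above background on all 3 arrays, which leaves Ppbp out, gave 1.106 between the MafG-intact stages. A 3-fold threshold left 0 genes lower against MafG-intact E9.5 and 3 higher between the MafG-intact stages. Gp1ba, at -0.999 against MafG-intact E9.5, passed 2-fold with scaling on detected probes, on spike-in probes and with the deposited value table, for a count of 5. Pf4 ranged from -2.997 to -2.74 and from -1.27 to -1.14 in the triple null comparisons, the narrowest of the 5 genes with the largest differences. The differences of Gp1bb, Vwf and Clec1b from MafG-intact E9.5 changed sign between settings, all within 0.05 of 0, as did that of Itga2b between the MafG-intact stages, from -0.07 to 0.28. The single-gene differences moved by more than their scanner error in 17 of 240 cases, all under normexp. Dim genes limit the precision, since the median SD of repeated spots on the triple null array was 0.15 at log2 levels from -6 to -4 and 0.05 from 0 to 2.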

Other observations

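Among the other platelet genes of the 4 lists, none was 2-fold above either MafG-intact pool in triple null embryos by its measured difference or its bound. The highest measured differences from MafG-intact E10.5, named after their values were seen, were those of Plcg2, the phospholipase downstream of CLEC-2 (0.84), and Stxbp2, a granule secretion gene (0.63). F2rl3, a thrombin receptor gene, was too dim at E10.5 in MafG-intact embryos and had a bound of 0.66, so its difference is at least that. Against MafG-intact E9.5 the values were -0.06 for Plcg2, 0.19 for Stxbp2 and -0.26 for F2rl3. Cxcl5, the chemokine gene beside Ppbp, had the highest measured difference of the granule genes against MafG-intact E9.5, at 0.70.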
